A study of Rattus norvegicus with 35 samples.

Results

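The genes described here are those of the vacuolar proton pump (V-ATPase) and of the acid and base transport of kidney intercalated cells, in the kidney cortex of rats fed 1 of 3 potassium diets. They were chosen by name: every gene whose symbol begins with Atp6v, the prefix of the V-ATPase subunits, and 12 genes of intercalated cell acid-base transport, Slc4a1, Slc26a4, Slc26a7, Slc4a9, Foxi1, Rhcg, Rhbg, Atp12a, Atp4a, Hepacam2, Insrr and Dmrt2. Of 34 such protein-coding genes, 31 reached 1 FPKM (fragments scaled to gene length and to library size) in at least 5 of the 35 libraries. They were 31 of the 14264 genes tested and of 32545 genes in the table. They fell into 5 subunits known from intercalated cells (Atp6v1b1, Atp6v0a4, Atp6v1g3, Atp6v0d2 and Atp6v1c2), 15 other subunits, most of them found in nearly every cell, and 11 genes of acid-base transport and intercalated cell identity.

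The 35 libraries came from wild-type male and female rats; no strain is stated in the labels. A telemeter for blood pressure was implanted at 8 weeks of age, and a few days later the rats received 1 of 3 diets for 5 weeks, all of which held 4% NaCl. The diets were deficient in potassium (DK), normal in potassium at 0.36% (NK) or high in potassium at 1.41% (HK), so that every group, the NK controls included, ate a high-salt diet. Each sex and diet had 6 libraries, except female HK with 5. The labels do not state that each library is a separate animal, so the p-values reflect sample-to-sample spread, which may be technical in part.

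The V-ATPase couples ATP hydrolysis in its cytosolic V1 sector to proton transport through its membrane V0 sector, and it acidifies lysosomes and endosomes in nearly every cell. Several positions of the complex can be filled by alternative isoforms, and in the kidney some of these are concentrated in intercalated cells of the collecting duct and connecting tubule, which place the pump at the plasma membrane. Type A intercalated cells secrete acid with an apical pump and a basolateral chloride/bicarbonate exchanger (Slc4a1), while type B cells secrete bicarbonate through apical pendrin (Slc26a4). Potassium depletion is known for raised renal ammonia production and acid secretion.

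Recovered reads in genes ranged over the libraries from 13.99 M to 28.66 M (median 14.98 M). The sample descriptions carry numbers from 2 series of unstated meaning. The 200s held 9 libraries, 5 of them male DK and 4 female NK, while the remaining 26 were numbered in the 300s. The other 4 groups had no library in the 200s, so the series differed between diets in each sex and between the sexes on NK and on DK. Across the members, male NK replicate 2 was the lowest of its group in 24 of 31 genes and female DK replicate 1 in 21 of 31. Low levels in male NK replicate 2 were not limited to the members. Its summed markers were also the lowest of its group for proximal tubule (1651 FPKM, group median 2967) and distal convoluted tubule (61.2, median 181). The same held for principal cells (244, median 412) and podocytes (47.7, median 97.4). Its macrophage (247) and red cell (667) sums were the highest of the group. Of the cortical markers, the proximal phosphate transporter Slc34a1 ranged from 793 to 2076 FPKM over all libraries. Of 5 distal convoluted tubule markers, Slc12a3 ranged from 34.9 to 147 FPKM, and only Pvalb had any library at 0, with 34. Of 3 inner medullary markers, Slc14a2 was at 0 in 18 libraries and Upk1b in 14. The third, the water channel Aqp4, was above 0 in all libraries and rose on DK in both sexes, from 0.8 to 3.67 FPKM in female NK to 5.34 to 19.2 FPKM in female DK and from 0.576 to 1.18 FPKM in male NK to 1.64 to 5.74 FPKM in male DK (log2 1.92 and 1.31, limma adjusted p = 3.16e-06 and 0.00706). Its part in the members' changes was not tested. Of 6 defining intercalated cell markers, Foxi1, Slc4a1, Slc26a4, Atp6v1b1, Atp6v1g3 and Slc4a9, the summed level was 165 to 238 FPKM in female NK and 72.4 to 164 FPKM in male NK. It was 165 to 294 FPKM in female DK and 148 to 252 FPKM in male DK.

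Promoter sequences of 23 of the 31 members were matched by symbol in a RefSeq table of build GRCr8, and 4 are shown: the promoters of the 2 subunits with the largest female changes among the intercalated cell isoforms, and the 2 members in which a searched motif was found. Atp6v1g3 (chr13:52362082-52362331, plus strand) and Atp6v0a4 (chr4:67809093-67809342, minus strand) were called on DK against NK in both sexes. Atp6v1b1 (chr4:117781194-117781443, plus strand) was called in males, and Atp6v0d1 (chr19:50357249-50357498, minus strand) is the general isoform at the position of Atp6v0d2. Each sequence is the 250 bases before the annotated start, 5′ to 3′ on the gene's strand, and capitals mark a motif match.
Atp6v1g3: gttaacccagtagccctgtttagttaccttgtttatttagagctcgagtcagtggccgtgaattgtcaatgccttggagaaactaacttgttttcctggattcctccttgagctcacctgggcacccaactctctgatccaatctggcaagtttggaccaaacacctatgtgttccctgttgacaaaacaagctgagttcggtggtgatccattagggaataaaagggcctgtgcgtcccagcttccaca
Atp6v0a4: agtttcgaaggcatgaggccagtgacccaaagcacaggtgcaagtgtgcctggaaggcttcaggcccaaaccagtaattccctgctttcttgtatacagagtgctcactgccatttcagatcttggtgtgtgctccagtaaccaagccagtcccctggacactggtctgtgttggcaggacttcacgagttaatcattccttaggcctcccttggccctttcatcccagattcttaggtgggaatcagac
Atp6v1b1: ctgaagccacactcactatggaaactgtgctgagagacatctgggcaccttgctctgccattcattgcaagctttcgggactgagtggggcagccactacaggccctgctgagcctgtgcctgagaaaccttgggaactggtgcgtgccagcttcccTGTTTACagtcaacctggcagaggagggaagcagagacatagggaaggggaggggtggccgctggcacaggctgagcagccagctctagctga
Atp6v0d1: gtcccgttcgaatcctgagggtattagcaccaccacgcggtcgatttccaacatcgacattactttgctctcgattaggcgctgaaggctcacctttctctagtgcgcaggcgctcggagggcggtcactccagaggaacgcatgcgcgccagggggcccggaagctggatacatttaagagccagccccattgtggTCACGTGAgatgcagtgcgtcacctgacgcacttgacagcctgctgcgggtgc
The forkhead core TGTTTAC, the type of motif read by factors such as Foxi1, was searched on both strands and occurred in 3.21% of 33469 rat promoters of the same length. Among the 23 matched members it occurred in Atp6v1b1, with its first base 93 bases before the start. The palindromic E-box TCACGTGA of the lysosomal CLEAR element occurred in 0.657% of promoters and, among the members, in Atp6v0d1, with its first base 53 bases before the start. Neither is shown here to be a bound site.

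On normal potassium the intercalated cell isoforms held very different shares of the RNA summed over the isoforms of their position. These are shares in bulk cortex over all its cell types, and the makeup of the pump itself was not measured. In female NK libraries Atp6v0a4, the a subunit that carries the proton path and is mutated in distal renal tubular acidosis, was at 195 ± 29.9 FPKM (SD, n = 6). The other a isoforms were far lower: Atp6v0a1, of wide distribution, was at 15.7 ± 1.23 FPKM, Atp6v0a2, of Golgi and endosomes, at 7.68 ± 0.308 FPKM, and Tcirg1, the a3 isoform of osteoclasts and lysosomes, at 7.18 ± 1.17 FPKM. Atp6v0a4 thus made up 86.2% ± 2.41 of the FPKM summed over the a isoforms. Atp6v1b1, the B subunit mutated in distal renal tubular acidosis with deafness, made up 18.2% ± 1.8 of B, the rest being Atp6v1b2. The corresponding shares were 11.9% ± 2.33 for Atp6v0d2 beside Atp6v0d1, 18.9% ± 2.45 for Atp6v1g3 beside Atp6v1g1 and Atp6v1g2, and 19.7% ± 2.32 for Atp6v1c2 beside Atp6v1c1. The gene of highest level was Atp6v0c, the proteolipid of the rotating membrane ring, at 614 ± 74.6 FPKM. Atp6v0a4 overlaps Tmem213 on the opposite strand, a gene at 119 ± 26.1 FPKM in female NK. Whether counting used the strand is not stated, so reads of the pair cannot be told apart with certainty.

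Potassium deficiency against normal potassium asked what the lack of potassium did to these genes within each sex. In females 14 of 31 members were higher on DK and 1 was lower (limma on log2 of FPKM plus 0.5, adjusted p under 0.05 over all 14264 genes), against 39.1% of all genes called, 19.7% higher and 19.5% lower. In males 14 were higher and 0 lower, against 4.77% of all genes called and 2.92% higher. Atp6v0a4, Atp6v1g3 and Atp6v0d2 of the intercalated cell subunits, pendrin, and both ammonia channels were among the 10 genes called higher in both sexes. Those 10 were 10 of the 15 called in females and of the 14 called in males. The share of all genes called in both sexes was not counted, so this overlap has no rate to stand beside. The median log2 change of the 5 intercalated cell subunits was 0.59 in females and 0.76 in males. For the 15 other subunits it was 0.28 and 0.27, for the 11 acid-base genes 0.18 and 0.69, and for all genes tested -0.01 and 0. The female and male comparisons use separate libraries. In bulk cortex, more or fewer cells of a type and more or less RNA per cell cannot be told apart.

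**Figure D1:**
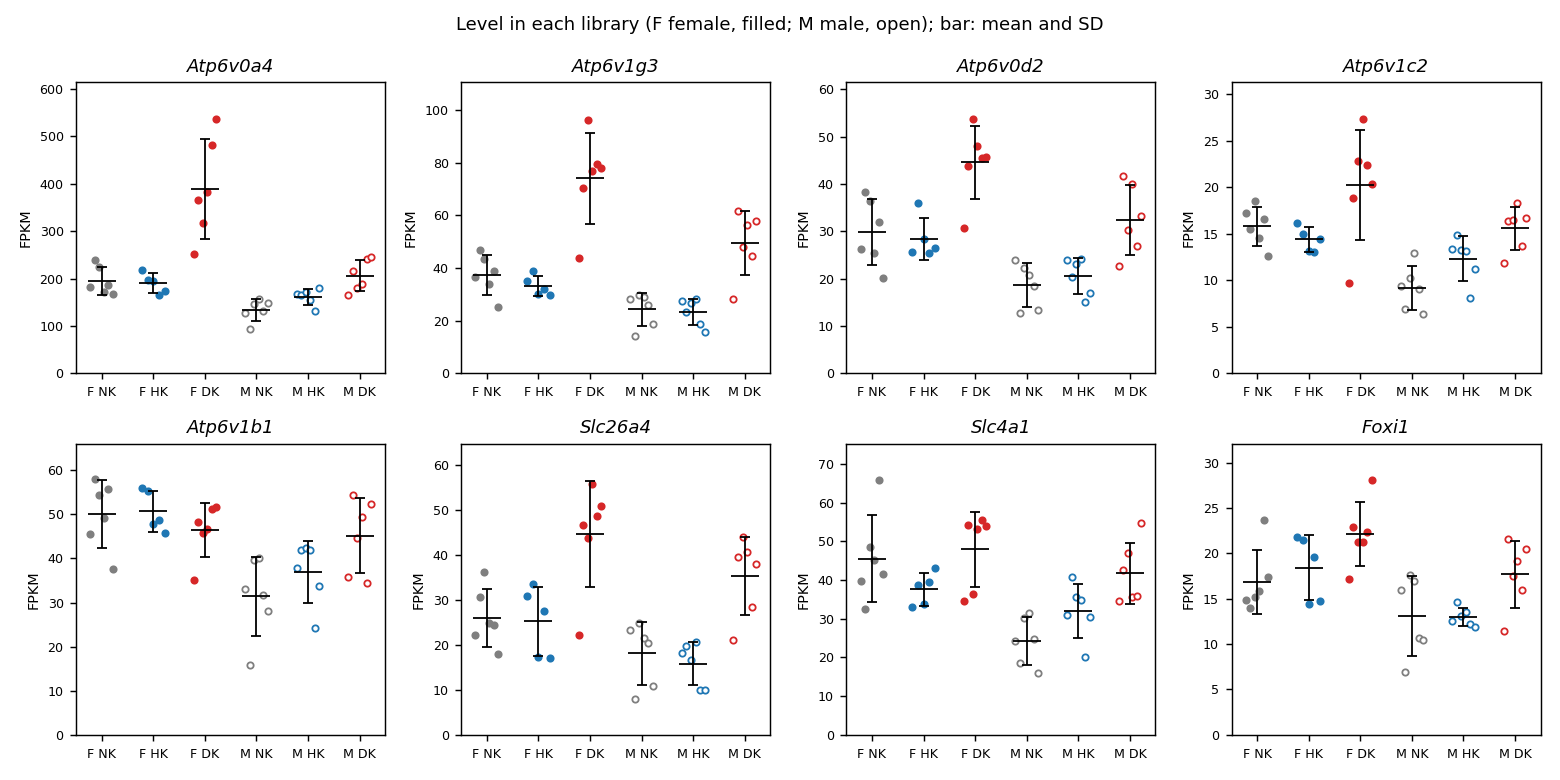
FPKM in each library for the 5 intercalated cell subunits, Slc26a4, Slc4a1 and Foxi1 in the 6 groups (F, female, filled points; M, male, open points; bars, mean and SD; n = 6, or 5 for F HK). The 6 female DK points of Atp6v0a4, at 251 to 536 FPKM, all lie above the female NK points, at 167 to 240 FPKM, while those of Atp6v1b1 overlap.

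Atp6v0a4 was the 1 member without overlap between DK and NK in both sexes. It was at 251, 366, 317, 382, 481 and 536 FPKM in the female DK libraries and at 182, 240, 225, 172, 187 and 167 FPKM in female NK. In males it was at 166, 217, 180, 188, 242 and 246 FPKM on DK and at 128, 93.2, 146, 157, 131 and 148 FPKM on NK. The lowest DK library stood above the highest NK library in each sex. The fold change was 1.95 in females (log2 0.96 ± 0.14 SE, limma adjusted p = 2.99e-06) and 1.55 in males (log2 0.63 ± 0.14 SE, adjusted p = 0.00908). Fold changes here are on the scale of FPKM plus 0.5.

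Atp6v1g3, the G subunit of the stator stalk that is largely restricted to the kidney, changed by a similar factor in both sexes. It was at 43.7, 70.3, 96.3, 76.7, 79.6 and 77.8 FPKM in female DK and at 36.6, 46.8, 43.5, 33.9, 38.7 and 25.1 FPKM in female NK. It was at 28.2, 61.7, 48.0, 56.4, 44.7 and 57.8 FPKM in male DK and at 28.2, 14.3, 29.8, 29.1, 25.9 and 18.8 FPKM in male NK. In each sex 5 of 6 DK libraries lay above all NK libraries, and replicate 1 of DK lay among them. The log2 change was 0.96 ± 0.19 (SE, limma adjusted p = 0.000195) in females and 1.01 ± 0.19 (adjusted p = 0.0023) in males.

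Atp6v0d2, an isoform of the subunit between rotor and membrane ring that is also abundant in osteoclasts and some macrophages, had a lowest, median and highest level of 30.7, 45.6 and 53.8 FPKM in female DK. In female NK these were 20.2, 29.1 and 38.2 FPKM. In males they were 22.6, 31.7 and 41.6 FPKM on DK and 12.8, 19.6 and 23.9 FPKM on NK. In each sex the groups overlapped only through DK replicate 1, and the log2 change was 0.59 ± 0.17 (SE, limma adjusted p = 0.00656) and 0.79 ± 0.17 (adjusted p = 0.00631). Of 9 macrophage and osteoclast markers, 4 were called higher and 2 lower in female DK, and 0 in either direction in males. Their summed level was 200 to 317 FPKM in female DK against 150 to 183 FPKM in female NK, and 188 to 302 FPKM in male DK against 191 to 247 FPKM in male NK. Gpnmb, the marker with the largest change, was at 26.6 to 55.8 FPKM in female DK and at 5.95 to 11.3 FPKM in female NK, and Adgre1 at 3.16 to 5.36 FPKM and 5.56 to 9.65 FPKM. The part of these cells in the Atp6v0d2 change was not tested.

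Atp6v1c2 and Atp6v1b1 were called in males and not in females. Atp6v1c2, an isoform of the C subunit that joins V1 to V0, was at 15.6 ± 2.34 FPKM in male DK and 9.17 ± 2.4 FPKM in male NK (SD, n = 6 each), a log2 change of 0.76 ± 0.17 (SE; adjusted p in limma = 0.00974). In females its log2 change was 0.29, with a 95% interval from -0.06 to 0.64, and female DK replicate 1, at 9.72 FPKM, lay below all female NK libraries. Atp6v1b1 was at 35.9, 54.4, 44.6, 49.5, 34.4 and 52.3 FPKM in male DK and at 33.1, 15.8, 39.6, 40.1, 31.7 and 28.1 FPKM in male NK. In male DK 4 of 6 libraries exceeded all NK libraries, with a log2 change of 0.56 ± 0.17 (SE; adjusted p in limma = 0.0458). In females Atp6v1b1 was at 35, 48.3, 45.8, 46.7, 51.3 and 51.6 FPKM on DK and at 45.6, 57.9, 54.3, 49.2, 55.8 and 37.5 FPKM on NK, overlapping. The female interval was -0.44 to 0.24 on the log2 scale. The difference between the sexes in this change was 0.66 ± 0.23 (SE) for Atp6v1b1, with an adjusted p of 0.0686, and 0.47 ± 0.24 for Atp6v1c2, with an adjusted p of 0.25, so neither was called on the authors' scaling.

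Among the other V1 subunits the rotor stalk subunit Atp6v1f moved most. It was at 176, 266, 365, 267, 353 and 324 FPKM in female DK and at 129, 199, 166, 136, 141 and 143 FPKM in female NK. All but the lowest DK library lay above NK, and the log2 change was 0.91 ± 0.14 (SE, limma adjusted p = 6.84e-06), against 0.52 ± 0.14 (adjusted p = 0.0296) in males. The regulatory subunit Atp6v1h rose by 0.55 in females and 0.45 in males on the log2 scale, and the stator subunit Atp6v1e1 by 0.43 and 0.39. For both genes every male DK library lay above every male NK library. The catalytic subunit Atp6v1a rose by 0.36 in females, its general partner Atp6v1b2 by 0.29 and the stator subunit Atp6v1g1 by 0.28. In males these log2 changes were 0.34, 0.29 and 0.15 and none was called, with adjusted p of 0.0848, 0.0674 and 0.337, although Atp6v1a and Atp6v1b2 did not overlap between male DK and NK. In all, 7 members had no overlap between DK and NK in males, all higher on DK, against 3.79% of all genes, and 2 in females, Atp6v0a4 above and Atp6v0a2 below, against 11.7% of all genes. Atp6v1c1, the general C isoform, and the rotor subunit Atp6v1d were called in neither sex on the authors' scaling. Their log2 changes were 0.05 and -0.07 in females and 0.23 and 0.30 in males.

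The V0 sector was less uniform. Atp6v0c, the ring proteolipid, rose from 614 ± 74.6 to 816 ± 119 FPKM in females and from 550.0 ± 31.9 to 693 ± 69.6 FPKM in males (SD, n = 6 each), log2 changes of 0.40 ± 0.1 and 0.33 ± 0.1 (SE, limma adjusted p = 0.00123 and 0.0432). Atp6v0e1, a small membrane subunit, was at 65.9, 97.4, 120.0, 90.4, 97.3 and 104 FPKM in female DK and at 47.8, 68.9, 60.3, 49.9, 51.0 and 50.4 FPKM in female NK. Only the lowest of the female DK libraries lay within the NK range, and the log2 change was 0.79 ± 0.11 (adjusted p = 1.02e-06). In males it was at 49.1, 59.2, 45.9, 67.3, 54.1 and 62.0 FPKM on DK and at 52.7, 44.5, 47.5, 49.3, 52.7 and 46.1 FPKM on NK, with a log2 change of 0.19 and an adjusted p of 0.327. Atp6v0a2 was the 1 member called lower in females on the authors' scaling, from 7.68 ± 0.308 to 5.83 ± 0.538 FPKM (log2 -0.37 ± 0.06 SE, limma adjusted p = 2.83e-06). Every female DK library, at 4.91 to 6.49 FPKM, lay below every NK library, at 7.31 to 8.08 FPKM. In males its log2 change was -0.06, and the DK range of 6.42 to 7.76 FPKM overlapped the NK range of 7.11 to 7.92 FPKM. Atp6v0a1, the ring subunit Atp6v0b, Atp6v0d1 and the small subunit Atp6v0e2 were called in neither sex on the authors' scaling. Their log2 changes were from -0.22 to 0.18 in females and -0.14 to 0.27 in males.

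Of the anion exchangers, pendrin, the apical chloride/bicarbonate exchanger of type B cells, was higher on DK in both sexes. Slc26a4 was at 22.2, 46.8, 43.8, 55.8, 48.8 and 50.9 FPKM in female DK and at 22.3, 30.7, 36.2, 25.0, 24.5 and 17.9 FPKM in female NK. It was at 21.1, 39.6, 44.1, 40.8, 28.4 and 38.1 FPKM in male DK and at 23.3, 7.89, 24.9, 21.5, 20.5 and 10.9 FPKM in male NK. In each sex 5 of 6 DK libraries were above all NK libraries and replicate 1 of DK was not. The log2 change was 0.75 ± 0.26 (SE, limma adjusted p = 0.0234) in females and 1.01 ± 0.26 (adjusted p = 0.023) in males.

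Slc4a1, the basolateral exchanger of type A cells and also the band 3 protein of red cells, was at 34.6 to 54.7 FPKM in male DK and at 16 to 31.5 FPKM in male NK, with no overlap. Its log2 change was 0.79 ± 0.17 (SE, limma adjusted p = 0.00705) in males and 0.08 ± 0.17 (adjusted p = 0.739) in females. The sex difference in this change was 0.71 ± 0.24, with an adjusted p of 0.06, and was not called on the authors' scaling. Red cell RNA was present: Hbb ranged from 7.84 to 239 FPKM over all libraries, and the median log2 change of 5 tested red cell genes was 0.14 in females and -0.74 in males. The part of red cells in the level of Slc4a1 was not tested. The red cell enzyme Alas2 reached 1.91 FPKM at most and the red cell membrane gene Epb42 reached 0.249 FPKM at most. Slc4a9, a basolateral transporter of type B cells, had log2 changes of 0.13 in females and 0.69 in males (adjusted p = 0.684 and 0.0651). Slc26a7, an anion transporter best known from the outer medulla, lay near the filter, at or above 1 FPKM in 9 libraries, and changed by -0.17 and 0.05.

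Both ammonia channels, which let ammonia pass from the interstitium toward the urine, were higher on DK. Rhcg, found on apical and basolateral membranes, was at 89.4 to 124 FPKM in female DK with a median of 110 and at 65.2 to 91.8 FPKM in female NK with a median of 78.0. In males it was at 49.8 to 101 FPKM on DK with a median of 74.5 and at 25.2 to 57.0 FPKM on NK with a median of 47.2. The groups overlapped in both sexes, and the log2 change was 0.47 ± 0.16 (SE, limma adjusted p = 0.0159) in females and 0.76 ± 0.16 (adjusted p = 0.0044) in males. Rhbg, the basolateral channel, rose from 42.8 ± 7.64 to 58.1 ± 6.65 FPKM in females and from 28.2 ± 7.43 to 55.6 ± 15.2 FPKM in males (SD, n = 6 each). Its log2 changes were 0.45 ± 0.18 (adjusted p = 0.0447) and 0.97 ± 0.18 (adjusted p = 0.00158).

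The factors and receptors of intercalated cells were mostly below the threshold. Foxi1, the forkhead factor without which intercalated cells do not form, was at 17.2 to 28.1 FPKM in female DK and 14 to 23.7 FPKM in female NK, and at 11.4 to 21.6 FPKM in male DK and 6.92 to 17.6 FPKM in male NK. Its log2 changes were 0.39 (limma adjusted p = 0.0693) and 0.46 (adjusted p = 0.113). Insrr, the insulin receptor-related receptor that senses alkaline pH, was called in males, at 7.17 ± 1.29 FPKM on DK and 3.86 ± 1.5 FPKM on NK (SD, n = 6 each), a log2 change of 0.88 ± 0.23 (SE, adjusted p = 0.0215). In females its log2 change was 0.18 (adjusted p = 0.552). Hepacam2, an adhesion molecule of intercalated cells, changed by 0.34 and 0.54 (adjusted p = 0.221 and 0.147), and the transcription factor Dmrt2 by -0.14 and 0.19 (adjusted p = 0.543 and 0.576). The proton/potassium pumps were scarce. Atp12a, the colonic type, was at 0.488 to 2.5 FPKM in female DK, 0.667 to 5.11 FPKM in female NK, 0.441 to 2.5 FPKM in male DK and 0.205 to 1.25 FPKM in male NK, and was called in neither sex. Its log2 intervals, -0.80 to 0.69 in females and -0.07 to 1.42 in males, were the widest of all members. Atp4a, the gastric type, did not reach 1 FPKM in any library, with a mean of 0.15 FPKM, and Atp6v1e2, an isoform of testis, had a mean of 0.041 FPKM. Atp6v1g2, an isoform of neurons, reached 1 FPKM in 4 libraries and lay just outside the filter, whereas Slc26a7 passed it with 9 libraries and Atp12a with 17.

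**Figure D2:**
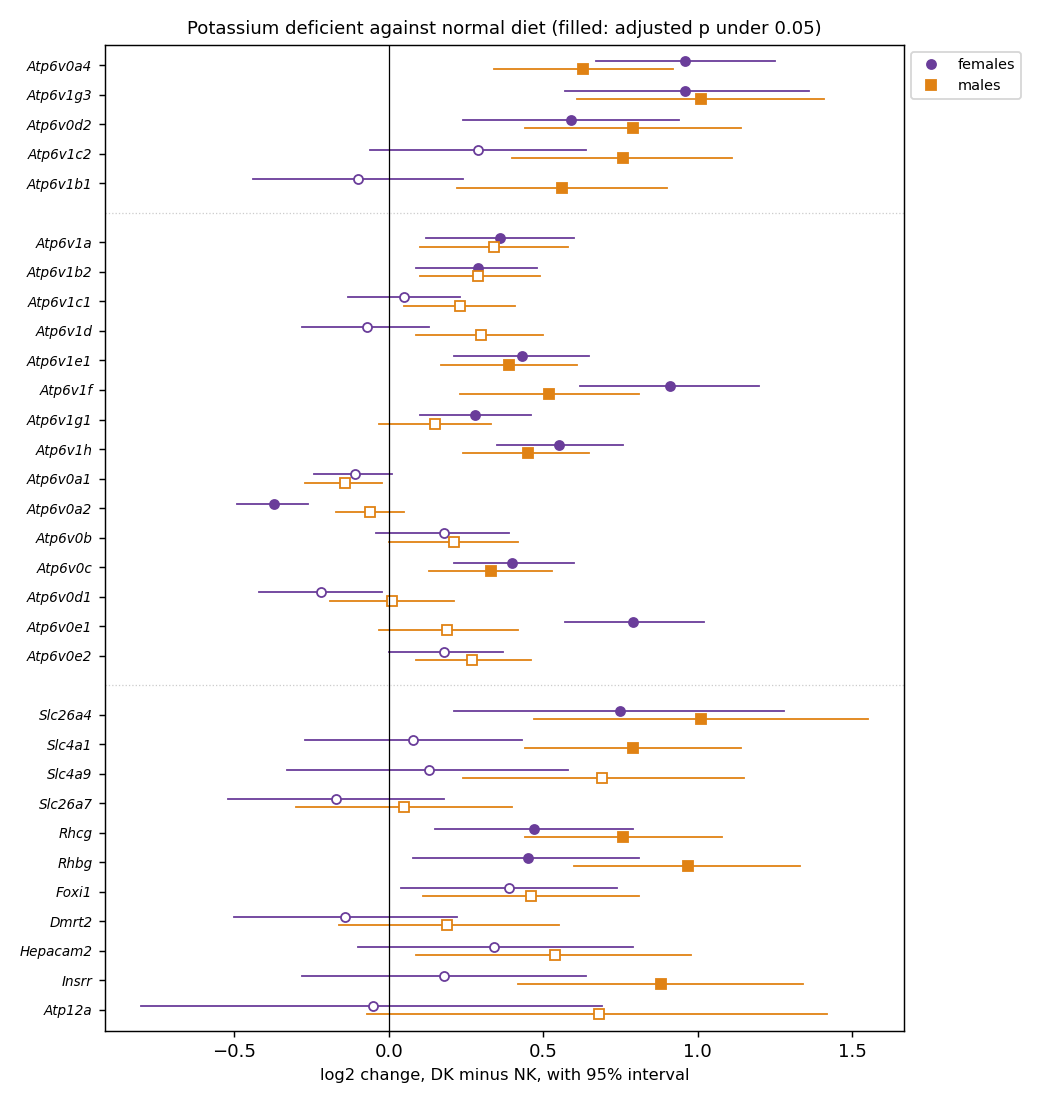
Log2 change of each of the 31 members, DK minus NK, with its 95% interval from limma, in females (circles) and males (squares); filled symbols had an adjusted p under 0.05. The 5 intercalated cell subunits are at the top, the 15 other subunits in the middle and the 11 acid-base genes at the bottom; Atp6v1b1 lies at -0.10 in females and 0.56 in males.

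The male calls depended on single libraries and on the number series. Without male NK replicate 2, 8 of the 14 were called: Atp6v0a4, Atp6v0d2, Atp6v1c2, Atp6v1g3, Atp6v1h, Rhbg, Rhcg and Slc4a1. Without male DK replicate 2 the count was 8, and without male DK replicate 4 it was 9. With the number series as a covariate 0 members were called in males by limma, with a smallest adjusted p of 0.0719; the median log2 change of the members was then 0.34 instead of 0.45 and their median SE 0.20 instead of 0.14. In females the scaling between libraries mattered. Of the 15 calls on the authors' values, 7 held both with quantiles and with library sums. They were Atp6v0a4, Atp6v0d2, Atp6v1g3, Atp6v1f, Atp6v1h and Atp6v0e1 higher and Atp6v0a2 lower. Scaling by median ratios left all 372 member and contrast results as on the authors' values, so it is not counted as another scaling. With library sums the split was 8 higher and 4 lower and with quantiles 6 higher and 3 lower. Beside Atp6v0a2, Atp6v0d1 and Atp6v1d were called lower in females under both, and Atp6v0a1 with library sums. Atp6v0a1 was also called lower in males with library sums. Library sums moved the median of all genes to -0.17, and the median of the 5 intercalated cell subunits was then 0.41 and that of the 15 other subunits 0.10. In males 12 of 14 calls held with both quantiles and library sums, all higher. Fitting the number series left 12 of the 15 female calls, without Slc26a4, Rhcg and Rhbg. Leaving out 1 library at a time, Rhbg lost its female call in 7 of 35 fits and Atp6v1b1 its male call in 18. Without female DK replicate 1, 18 members were higher and 1 lower in females.

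Genes around the members, from lists of related function, moved to differing degrees, and their counts stand beside 39.1% of all genes called in females and 4.77% in males. Of 15 accessory and assembly genes of the V-ATPase, 4 were higher and 2 lower in female DK, and 3 were higher in male DK. Rogdi, a subunit of the assembly complex RAVE, was called in both sexes, at 222 ± 54.2 FPKM on DK and 141 ± 12.5 FPKM on NK in females (log2 0.61, limma adjusted p = 0.000382) and with a log2 change of 0.45 (adjusted p = 0.0444) in males. The accessory subunits Atp6ap2 and Atp6ap1 rose by 0.30 and 0.22 in males. Wdr7, a partner of the same assembly machinery, fell by 0.40 in females, from 4.66 ± 0.463 to 3.52 ± 0.933 FPKM. Of 17 tested genes from a list of other intercalated cell genes, 5 were higher and 1 lower in females and 2 were higher in males. Tmem213, the gene on the opposite strand of Atp6v0a4, rose by 0.69 and the carbonic anhydrase Car12 by 0.44 in females, while the vesicle water channel Aqp6 rose by 0.52 in males.

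The proximal ammonia genes included changes larger than that of any member. Of 14 genes of proximal ammonia and bicarbonate handling, 8 were higher and 4 lower in female DK and 6 were higher in male DK. The glutamine transporter Slc38a3 was at 975 ± 486 FPKM in female DK and 61.5 ± 21.8 FPKM in female NK (SD, n = 6 each), a log2 change of 3.86 ± 0.37 (SE; adjusted p in limma = 8.32e-10), and changed by 1.70 ± 0.37 (adjusted p = 0.00641) in males. Glud1, glutamate dehydrogenase, rose by 1.97 and 1.04. Of 25 lysosomal genes, which share the general V-ATPase, 8 were higher and 3 lower in females and 2 were higher and 1 lower in males. Ctsd, a lysosomal protease, rose by 0.87 in females. Principal cells neighbour intercalated cells in the collecting duct. Of 10 of their genes 1 was higher and 3 lower in females and 0 were called in males, with a summed level of 411 to 688 FPKM in female DK and 467 to 606 FPKM in female NK. Of 4 tested distal convoluted tubule genes, 2 were higher in each sex. Among 8 proximal tubule genes, 4 were higher and 2 lower in females and 1 was higher in males. Podocyte genes were lower in 3 of 4 in females, with a median log2 change of -0.46, and 0 of 4 were called in males. Of 5 thick ascending limb genes 1 was higher and 3 lower in females, with a median of -0.55, and 0 were called in males. The part of shifts in cell makeup in the members' changes was not tested.

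The share of RNA that an isoform held of its position does not depend on scaling between libraries. Atp6v0a4 went from 86.2% ± 2.41 of the a isoforms in female NK to 93.2% ± 1.86 in female DK and from 80.2% ± 3.37 to 87.6% ± 2.01 in males, without overlap in either sex. Atp6v0d2 went from 11.9% ± 2.33 of d to 19.0% ± 2.06 in females, again without overlap, and from 9.3% ± 2.1 to 15.1% ± 3.01 in males, with overlap. Atp6v1g3 went from 18.9% ± 2.45 of G to 27.3% ± 3.3 in females and from 14.2% ± 3.41 to 23.2% ± 4.53 in males, with overlap in both. Atp6v1c2 was at 19.7% and 22.8% of C in female NK and DK and at 13.2% and 18.2% in male NK and DK, with overlap. The B position differed: Atp6v1b1 held 18.2% ± 1.8 in female NK and 14.5% ± 1.36 in female DK, with ranges of 15.9% to 20.5% and 12.2% to 16.4%, and 13.8% ± 2.91 and 16.2% ± 2.96 in male NK and DK. Atp6v0e1 held 31.5% ± 1.31 of the e position in female NK and 41.3% ± 4.33 in female DK, with no overlap, and 32.7% ± 2.05 and 31.5% ± 1.6 in male NK and DK. These are descriptions without a test. Per read rather than per length, the female shares were 82.3% and 91.2% for Atp6v0a4 and 55.3% and 65.3% for Atp6v0e1.

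**Figure D3:**
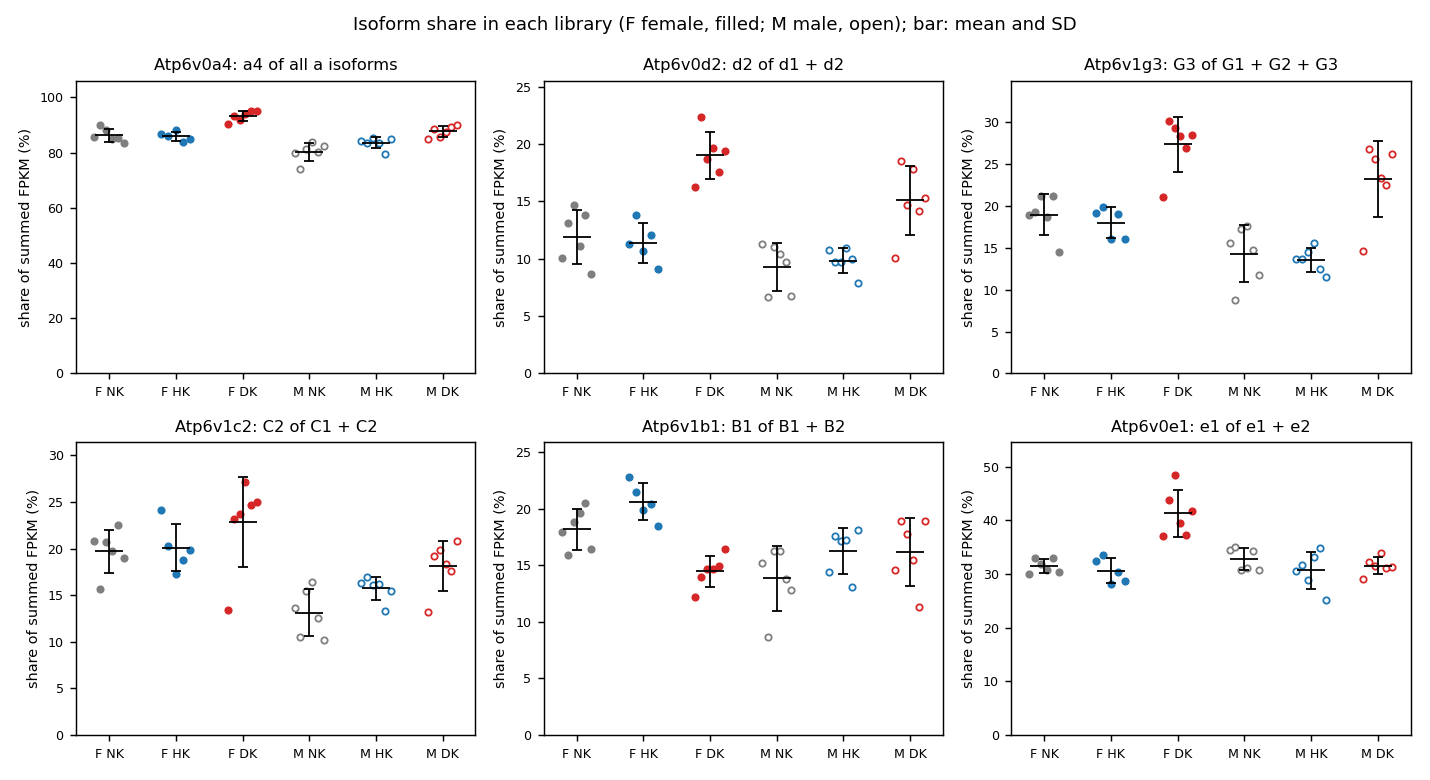
Share (%) of the FPKM summed over the isoforms of a position held by 1 isoform, in each library of the 6 groups (F, female, filled; M, male, open; bars, mean and SD). In females on DK the a4, d2 and e1 shares lie above all NK libraries, while the B1 share has a mean of 14.5% against 18.2% on NK.

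High potassium against normal potassium asked whether extra potassium moved the same genes. No member was called in either sex: limma gave 0 of 31 in females and 0 of 31 in males, and 0% of all genes. At an unadjusted p under 0.05 there was 1 in females, Atp12a, and 3 in males, Atp6v1c2, Slc4a1 and Rhcg. On recovered reads voom called 0 members in each sex, and limma with array weights called 0 in females and 2 in males, Atp6v1c2 and Slc4a1, where it called 387 of 14264 genes. Atp12a was at 3.24, 5.04, 1.46, 3.89 and 1.61 FPKM in female HK and at 1.27, 0.667, 0.76, 1.41, 0.715 and 5.11 FPKM in female NK. All HK libraries were above the 5 lower NK libraries, and the highest NK library, replicate 6, was above them all. Its log2 change was 0.87 ± 0.38 (SE), with an adjusted p of 1. The median log2 change of the members was -0.05 in females and 0.09 in males. For the 5 intercalated cell subunits the changes were between -0.16 and 0.03 in females and between -0.04 and 0.42 in males. The female intervals were -0.34 to 0.27 for Atp6v0a4 and -0.57 to 0.26 for Atp6v1g3.

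Potassium deficient against high potassium diet set the extremes against each other, with the DK libraries shared with the comparison above. In females 13 members were higher and 1 lower on DK, against 36.4% of all genes called, 18.6% higher and 17.8% lower. In males 7 were higher and 0 lower, against 4.32% of all genes called, 2.7% higher and 1.62% lower. With library sums the female split was 10 higher and 4 lower and with quantiles 7 higher and 2 lower. Under both, 8 of the 14 female calls held. Atp6v1g3 was at 35, 38.7, 30.1, 31.9 and 29.8 FPKM in female HK, below every female DK library, with a log2 difference of 1.12 ± 0.2 (SE, limma adjusted p = 6.87e-05). In males it was at 15.7 to 28.1 FPKM on HK, just below the lowest DK library at 28.2 FPKM, with a difference of 1.05 ± 0.19 (adjusted p = 0.0017). Atp6v0a4 was at 219, 197, 196, 165 and 174 FPKM in female HK, again below every DK library, with a difference of 0.99 ± 0.15 (adjusted p = 4.97e-06). Pendrin differed by 0.81 ± 0.28 (adjusted p = 0.0204) in females and 1.15 ± 0.26 (adjusted p = 0.0112) in males, without overlap in males. Non-overlapping members numbered 7 above and 1 below in females, against 15.3% of all genes, and 3 above in males, against 2.84%. The Atp6v1b1 share of the B position was 18.5% to 22.8% in female HK and 12.2% to 16.4% in female DK. With the number series as a covariate 0 members were called in males, 3 were called without male DK replicate 2, 4 or 6 or male HK replicate 6, 4 without male DK replicate 5 or male HK replicate 5, and 11 without male DK replicate 1.

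The difference between the sexes in the response to potassium deficiency was tested directly. Of 31 members 2 were called, 1 in each direction, against 9.96% of all genes, 4.82% with a positive and 5.14% with a negative male minus female difference. Atp6v0e1 changed less in males, with a log2 difference of -0.60 ± 0.16 (SE; adjusted p in limma = 0.0112), and Atp6v0a2 did not fall as in females, a difference of 0.32 ± 0.08 (adjusted p = 0.00798). The same 2 were called in the sex difference of DK against HK, by -0.63 ± 0.16 (adjusted p = 0.0137) and 0.35 ± 0.08 (adjusted p = 0.00599), against 5.45% of all genes, 2.38% higher and 3.06% lower. That comparison shares the DK libraries, and when the number series entered the fit its calls were Atp12a and Atp6v0a2, and Atp6v0e1 had an adjusted p of 0.0688. On the authors' scaling none of the intercalated cell subunits or acid-base genes was called in either, the smallest adjusted p being 0.06 for Slc4a1 in the first and 0.0571 for Atp6v0a4 in the second. In the difference of DK against NK, library sums, quantiles and voom each called Atp6v1b1 and Slc4a1, both with a positive male minus female difference (voom adjusted p = 0.0242 and 0.0393). Voom also scaled by the summed reads of each library, so it is not a separate scaling from library sums. Limma with array weights called Atp6v0a4 in both differences, with a negative one (adjusted p = 0.0158 and 0.00178). Fitting the number series left 0 members called in the difference of DK against NK, and the median SE of the members rose from 0.20 to 0.33. In the sex difference of HK against NK limma called 0 members, 3 had an unadjusted p under 0.05, and voom called 0.

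Males against females on each diet asked where the sexes stood apart. On normal potassium all 31 members had a lower level in males on the authors' scaling (26 of 31 with library sums and 27 of 31 with quantiles, the exceptions all being general subunits), and 14 were called, against 21% of all genes called, 9.81% higher and 11.2% lower. The 14 held all 5 intercalated cell subunits, 7 of 11 acid-base genes and 2 of 15 other subunits, Atp6v0d1 and Atp6v1e1. Median log2 differences were -0.67, -0.62 and -0.16 for the respective groups and -0.01 for all genes. Of the 7 acid-base genes called, Slc26a7 lay near the filter, with means of 1.08 FPKM in female NK and 0.521 FPKM in male NK. It reached 1 FPKM in 3 of 6 female NK and 0 of 6 male NK libraries. It passed the filter mainly through female libraries, so its call here is not separate from that choice. Rhcg was at 45.0 ± 12.1 FPKM in male NK and 78.2 ± 12.8 FPKM in female NK (SD, n = 6 each), a log2 difference of -0.83 ± 0.16 (SE, limma adjusted p = 0.000234). Slc4a1 was at 16 to 31.5 FPKM in males and 32.5 to 65.9 FPKM in females, a difference of -0.90 ± 0.17 (adjusted p = 0.000266), and Atp6v0a4 at 93.2 to 157 FPKM and 167 to 240 FPKM, a difference of -0.55 ± 0.14 (adjusted p = 0.00566). These 3 genes and Atp6v0d1 did not overlap between the sexes, 4 of 31 against 10.9% of all genes. Principal cell genes had a median difference of -0.45 with 4 of 10 called lower, and proximal tubule genes of -0.39 with 2 of 8 called lower. Macrophage and osteoclast markers had a median of 0.52 with 6 of 9 called higher. Without male NK replicate 2, 8 members were called, with the number series as a covariate 5, and with libraries of the 300s alone, which leave 2 female NK libraries, 2, Atp12a and Slc4a1.

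On DK 10 members were called between the sexes and on HK 2, which does not show a smaller sex difference than on NK. The direct tests given above called 2 members in the sex difference of DK against NK and 0 in that of HK against NK. The median log2 difference of the 5 intercalated cell subunits was -0.46 on DK and on HK and -0.67 on NK. On DK 9 members were lower and 1 higher in males, against 34.4% of all genes called, 16.1% higher and 18.3% lower. Atp6v0a4 was at 166 to 246 FPKM in males and 251 to 536 FPKM in females, a log2 difference of -0.88 ± 0.14 (SE, limma adjusted p = 1.46e-05), and it was the 1 member without overlap, against 10.5% of all genes. Atp6v0e1 differed by -0.75 ± 0.11 (adjusted p = 3.29e-06), Atp6v1f by -0.67 ± 0.14 (adjusted p = 0.000469) and Atp6v0a2 by 0.28 ± 0.06 (adjusted p = 0.00021). Atp6v1b1 differed by -0.05 ± 0.17, with an interval of -0.39 to 0.29. With quantiles the split was 5 higher and 4 lower, with Atp6v0c, Atp6v0d1, Atp6v1c1 and Atp6v1d newly higher in males, and with library sums 3 higher and 5 lower, with Atp6v1c1 and Atp6v1d newly higher. Under both of these scalings 4 of the 10 calls held, Atp6v0a4, Atp6v0e1 and Atp6v1f lower and Atp6v0a2 higher. On HK 2 members were called, both lower in males, against 9.92% of all genes, 4.02% higher and 5.9% lower: Atp12a, at 0.222 to 0.811 FPKM in males and 1.46 to 5.04 FPKM in females (log2 -1.65 ± 0.38 SE, adjusted p = 0.00381), and Rhcg, by -0.54 ± 0.16 (adjusted p = 0.0313). On HK 5 members did not overlap, all lower in males, against 8.13% of all genes: those 2, Atp6v0d2, Atp6v1b1 and Atp6v1g3.

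**Figure D4:**
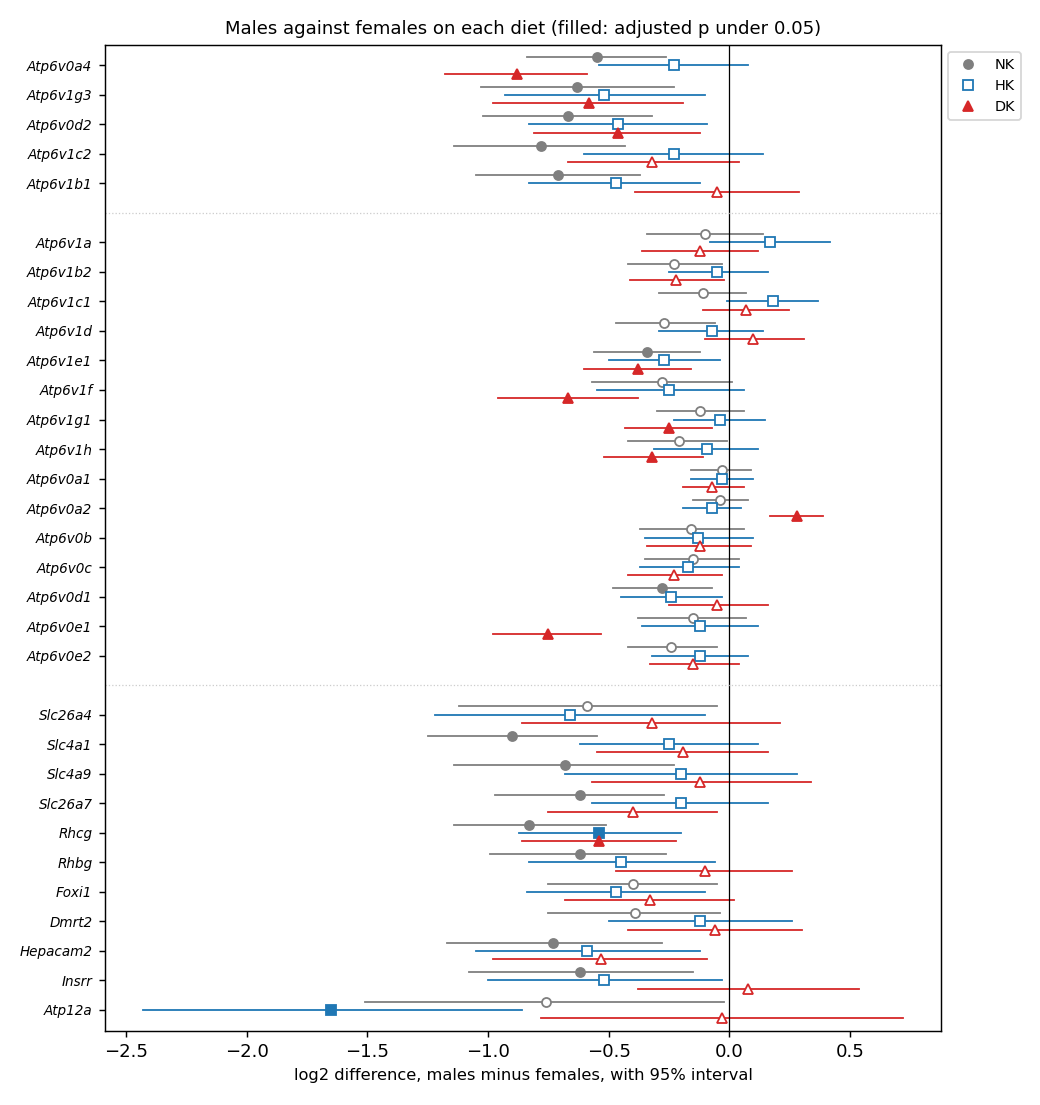
Log2 difference of each member, males minus females, on NK (circles), HK (squares) and DK (triangles) with 95% intervals from limma; filled symbols had an adjusted p under 0.05. On NK all 31 members lie below 0 on the authors' scaling, while on DK Atp6v0a2 lies at 0.28 and Atp6v0a4 at -0.88.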

How the data were processed

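Kidney cortex RNA of 35 rat libraries was extracted with Trizol and enriched with poly-T beads, per the labels' protocols; whether libraries were directional is not stated. The authors deposited FPKM values for 32545 genes, made per the submitters' processing notes with featureCounts 1.5.0-p3, StringTie 1.3.3b, HISAT2 2.0.5 and fastp; no label or file header names the build. The values came out as whole reads for 100.0% of entries within 0.01 read, and the library size behind them was 0.813 to 1.1624 times the recovered sum of 13.99 to 28.66 M reads. This factor followed the groups, at 0.813 to 0.9896 in female DK and 1.0752 to 1.1624 in male NK. It was 0.8868 to 1.0622 in female NK and 0.9622 to 1.0338 in male DK. Levels given here were therefore higher in female DK, and lower in male NK, than library sums would give. Genes with at least 1 FPKM in at least 5 libraries were tested (14264). The main test was limma 3.58.1 in R 4.3.3 on log2 of FPKM plus 0.5, with 1 mean per group over all 35 libraries (29 residual degrees of freedom), 12 contrasts, and Benjamini-Hochberg adjustment within each; a call is an adjusted p under 0.05. Errors are SD for levels and SE for log2 changes, and intervals are 95%. Tables and figures used Python 3.11.15, numpy 2.4.6, pandas 2.3.3, scipy 1.17.1 and matplotlib 3.10.9, and the test was tested on simulated data. Every member is named, and from each neighbouring list up to 4 called genes per contrast with the largest change and a mean of at least 2 FPKM; Tcirg1, Slc34a1, Slc12a3, Slc14a2, Upk1b, Pvalb, Hbb, Alas2 and Epb42 lie outside this rule and were chosen after their values were seen. The members and the lists were chosen with earlier results of these data known, and the red cell list and the fit without the 3 libraries of lowest weight were added after seeing the files. Alternatives were other pseudocounts (0.1 and 1), filters and scalings, protein-coding genes only, the groups of each contrast only, array weights, the number series as a covariate or its 300s alone, the replicate number as a block, voom on the recovered reads, and each of the 35 libraries left out in turn.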

Additional observations from a re-analysis of the deposited data

Results flagged for a closer look

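The response to potassium deficiency differed between the sexes, by a direct test, in 2 members: Atp6v0a2 (males minus females 0.32 on the log2 scale against NK and 0.35 against HK) and Atp6v0e1 (-0.60 against NK and -0.63 against HK). These are 2 of 31 members, against 9.96% of all genes called against NK and 5.45% against HK. The comparisons against NK and HK share the DK libraries. When the number series entered the fit, limma gave an adjusted p of 0.39 for Atp6v0a2 and 0.372 for Atp6v0e1 against NK, and 0.0466 and 0.0688 against HK.

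Single libraries stood far from the others of their group in 20 of 186 member and group combinations. The cutoff used flags about 1 in 20 by chance where combinations are independent. Here the members share the same libraries, and the rate over all genes was not counted, so no excess over chance is shown. Female DK replicate 1 was low in Slc26a4 (22.2 FPKM, the others 43.8 to 55.8), Slc4a9 (12.2, the others 31.7 to 41.0), Hepacam2 (6.54, the others 13.5 to 15.6) and Atp6v1b1 (35, the others 45.8 to 51.6). Male NK replicate 2 was low in Atp6v0e2 (82.6 FPKM, the others 100 to 109), Atp6v1e1 (86.7, the others 110.0 to 119) and Atp6v1h (34.8, the others 42.5 to 45.1). Female NK replicate 2 was high in Atp6v0b (209 FPKM, the others 132 to 155), Atp6v1g1 (197, the others 143 to 161) and Atp6v1h (66.1, the others 43.3 to 49.8). Female HK replicate 2 was high in Atp6v0d2 (36.0 FPKM, the others 25.4 to 28.4), Atp6v0e1 (56.7, the others 48.9 to 50.8) and Dmrt2 (12.7, the others 7.13 to 8.61). Male HK replicate 5 was low in Atp6v0d1 (137 FPKM, the others 188 to 214) and Atp6v1a (75.3, the others 92.6 to 103). Male HK replicate 6 was low in Atp6v0e1 (36.0 FPKM, the others 46.3 to 51.6) and high in Atp6v0a1 (16.8, the others 15.0 to 15.5). The remaining values were Atp12a at 5.11 FPKM in female NK replicate 6 (the others 0.667 to 1.41), Foxi1 at 23.7 FPKM in female NK replicate 5 (the others 14 to 17.4) and Atp6v1d at 77.9 FPKM in male NK replicate 1 (the others 69.1 to 72.4).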

How the results depend on the processing

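Counts are of members called, with 15, 14, 0 and 0 for DK against NK in females and males and HK against NK in females and males, 14 and 7 for DK against HK, 2, 0 and 2 for the sex differences in DK against NK, HK against NK and DK against HK, and 14, 10 and 2 for males against females on NK, DK and HK. Leaving out 1 library gave, in that order, 12 to 19, 8 to 17, 0 to 0, 0 to 0, 13 to 20, 3 to 11, 2 to 4, 0 to 0, 2 to 4, 8 to 16, 8 to 13 and 1 to 3. Male DK against NK fell to 8 without male NK 2 or male DK 2, and male DK against HK to 3 without male DK 2, DK 4, DK 6 or HK 6. With the number series as a covariate there were 0 in male DK against NK, 0 in male DK against HK, 0 in the sex difference in DK against NK and 5 in males against females on NK, and the 300s alone gave 2 in the last; the 300s alone were not run for contrasts with male DK, which has 1 library there. Quantiles gave 9 in female DK against NK, 9 in female DK against HK and 6 in the sex difference in DK against NK, where library sums and voom gave 5 each. Array weights gave 2 in male HK against NK, 4 and 6 in the sex differences in DK against NK and DK against HK, and 4 in males against females on HK, where a mean of at least 5 FPKM gave 1 and the groups of the contrast alone 6. Without the 3 libraries of lowest weight there were 11 in male DK against HK and 4 and 5 in those sex differences. Quantiles reversed Atp6v0c in female DK against HK (-0.019) and, in males against females on DK, Atp6v0c (0.185), Atp6v0d1 (0.225) and Atp6v1g1 (0.003). The cause of these changes was not tested. The replicate block gave 14 and 12 for DK against NK and 14 and 5 for DK against HK. The labels do not state that equal numbers pair libraries. The 85 same-numbered pairs had a median correlation of 0.000307 (-0.273 to 0.213), with 13 over 0.1. For 425 pairs of other numbers the median was 0.0011 (-0.262 to 0.282), with 54 over 0.1. A median over all pairs cannot exclude pairing of some libraries. Atp12a had 15 to 348 reads per library.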
